A study of Mus musculus with 40 samples.

Results

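The comparison is between YUMM2.1 mouse melanoma cells that express dHLH-Bmal1, a Bmal1 without its basic helix-loop-helix DNA-binding domain, and the same line with the empty vector (EV), in cells that keep their own Bmal1 gene. Libraries were taken by their labels, 2 dHLH-Bmal1 and 2 EV, which is 4 of the 40 libraries of the series, and the comparison was repeated with the library labelled WT-Bmal1 1 in the place of EV 2. YUMM2.1 is a line from a mouse tumour with Braf V600E, Cdkn2a +/- and 1 allele of stabilized beta-catenin. All groups carried a Bmal1::dLUC reporter and a GFP-marked lentivirus, either empty or with wild-type Bmal1 (WT-Bmal1) or dHLH-Bmal1, and cells were sorted for GFP as populations rather than clones. The construct is expressed constitutively and on top of the cells' own Bmal1. As far as the methods state, each construct was introduced into 1 population, so that an effect of dHLH-Bmal1 and a difference that arose between the populations cannot be told apart. Cells were grown in DMEM with serum, and no time of day or synchronization is given in the labels. The pairs of libraries are described as biological replicates, without a statement on separate cultures, and p-values measure only the spread between these libraries, which may be technical.

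Bmal1, whose gene symbol in the counts is Arntl, pairs with Clock and binds E-box sequences to activate the Period and Cryptochrome repressors, the REV-ERB nuclear receptors Nr1d1 and Nr1d2, and the PAR bZIP factors Dbp, Tef and Hlf. The REV-ERB proteins in turn repress Arntl and Nfil3 through ROR elements, at which the ROR receptors activate. A Bmal1 that binds Clock but not DNA takes Clock away from productive pairs, so dHLH-Bmal1 is used as an inhibitor of Clock-Bmal1. In melanoma, Sox10 marks the melanocytic and neural crest-like state and Sox9 a more mesenchymal one.

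RNA was read by QuantSeq, which gives 1 tag from the 3′ end of each transcript, and levels are given here as CPM, counts scaled to a common library size after TMM normalization. The 6 YUMM2.1 libraries held 9097676 to 11356803 counts. EV 1 lay nearest to the library labelled WT-Bmal1 1, at a root mean square difference of 0.429 on the log2 CPM scale over 14323 genes, and EV 2 nearest to WT-Bmal1 2, at 0.503, whereas EV 1 and EV 2 differed by 0.653. The study's supplementary list of differential genes has EV 2 and WT-Bmal1 1 exchanged against the labels. Where 4 levels of a gene are given before 2, they are those of EV 1, EV 2, WT-Bmal1 1 and WT-Bmal1 2, in this order, and then of dHLH-Bmal1 1 and 2. The values below follow the labels first, and those with the exchange, or with both doubtful libraries left out, stand beside them. The dHLH-Bmal1 libraries differed from each other by 0.647 and from all EV and WT-Bmal1 libraries by 0.877 to 1.17, so their place does not depend on the exchange. Of the melanoma markers, Sox10 was at 504 and 484 CPM in EV 1 and 2 and Mitf at 14.5 and 14.2, while the pigment genes Tyr, Dct, Pmel and Mlana did not pass the filter on low counts. Of 10 leukocyte markers Cd68 alone was tested (0.380 to 2.19 CPM), Cd3e, Adgre1 and Tyrobp had no count and no other had more than 7 in a library. Pecam1 and Cdh5, the 2 of 6 endothelial markers tested, summed to 8.52 to 11.7 CPM and did not pass as labelled, with at most 3 counts of the others. Cdh5, at 0.167 and 1.73 CPM in EV 1 and 2 and 2.66 and 2.76 with dHLH-Bmal1, passed after the exchange (adjusted p = 0.00317) and with both doubtful libraries left out (0.0212). None of 6 epithelial markers was tested, with at most 12 counts of Krt18 and none of Epcam, Krt5 and Cldn4. Of 7 smooth muscle and fibroblast markers, Thy1 had no count and 2 were tested, Pdgfra, which passed after the exchange (adjusted p = 0.00994) but not as labelled, and Pdgfrb, which rose. Their sum was 2.09 to 6.25 CPM in the EV and WT-Bmal1 libraries and 18.0 and 9.83 in dHLH-Bmal1 1 and 2. Their part in the results was not tested, and fewer cells of a type and less RNA per cell cannot be told apart in such bulk libraries.

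A gene was called at an edgeR adjusted p under 0.05 over all 14323 genes tested. As labelled, 932 genes rose with dHLH-Bmal1 (6.51%) and 962 fell (6.72%), with a median change of 2.57-fold among those that rose and 2.40-fold among those that fell. After the exchange 2178 rose (15.2%) and 1936 fell (13.5%). List counts given below for the exchange are to be read beside these shares. Those for fits without some libraries are to be read beside the totals of those fits. Under both labellings 915 rose (6.39%) and 957 fell (6.68%), and no gene was called in opposite directions. The genes called under both are 98.8% of those called as labelled and 45.5% of those called after the exchange. With both doubtful libraries left out, dHLH-Bmal1 was set against EV 1 alone, and WT-Bmal1 2 was also alone in its group. The spread in that fit came from the dHLH-Bmal1 pair only. Its calls and p-values hold no spread among EV or WT-Bmal1 libraries. Leaving out single libraries lowered the count to 644 without EV 1, 868 without dHLH-Bmal1 1 and 817 without dHLH-Bmal1 2, and to 1586 without EV 2.

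The clock genes changed in both directions. Lower Dbp, Nr1d1 and Nr1d2 with dHLH-Bmal1 were reported by the study from these same libraries, so their falls here are not independent evidence. Arntl (chromosome 7, 113207465 to 113314126 of mm10, + strand) stood at 16 and 13.9 CPM in EV 1 and 2, 14.0 and 18.2 in WT-Bmal1 1 and 2 and 51.3 and 35.7 in dHLH-Bmal1 1 and 2. Both dHLH-Bmal1 libraries were above all others (log2 fold change 1.54, SE 0.24, edgeR adjusted p = 0.00952), and the change after the exchange was 1.54 (adjusted p = 0.00104). Whether the added tags come from the cells' own gene, which overlaps the predicted gene Gm45355, or from the construct was not tested. Clock itself, its partner, was at 53.0, 54.9, 52.3 and 53.8 CPM against 60.1 and 57.1 with dHLH-Bmal1, and did not pass the test (log2 fold change 0.12, SE 0.12, edgeR adjusted p = 0.580). Arntl2, a paralogue, was at 3.34 and 2.80 CPM in EV and 7.51 and 3.12 with dHLH-Bmal1, where the library at the lower level lay among the others (log2 fold change 0.80, SE 0.49, edgeR adjusted p = 0.339), and Npas2, a Clock paralogue, was too low to be tested.

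Of 5 tested genes of the REV-ERB, ROR and Nfil3 arm, 3 fell and 1 rose, beside 6.72% and 6.51% of all genes. Nr1d1, which encodes REV-ERB alpha (chromosome 11, 98767932 to 98775333, - strand), was at 15.1 and 20.7 CPM in EV 1 and 2, 12.8 and 18.7 in WT-Bmal1 1 and 2 and 3.23 and 4.79 in dHLH-Bmal1 1 and 2. The dHLH-Bmal1 libraries lay below the others without overlap (log2 fold change -2.16, SE 0.32, edgeR adjusted p = 0.00851), with -1.81 (adjusted p = 0.000847) after the exchange. Nr1d1 shares exonic sequence with Thra on the other strand, and the strand of counting is not stated. Nr1d2, for REV-ERB beta, was at 70.4 and 68.7 CPM in EV 1 and 2, 69.5 and 54.6 in WT-Bmal1 1 and 2 and 28.3 and 20.6 in dHLH-Bmal1 1 and 2, and it fell too (log2 fold change -1.5, SE 0.20, edgeR adjusted p = 0.00585). Rorb, a receptor that activates at the same elements as the REV-ERBs repress, was at 164 and 151 CPM in EV 1 and 2, 152 and 139 in WT-Bmal1 1 and 2 and 52.1 and 50.7 in dHLH-Bmal1 1 and 2. Its levels agreed closely within each group and it fell about as much (log2 fold change -1.62, SE 0.12, edgeR adjusted p = 0.00143). Rora, the other ROR gene tested, was at 28.1 and 26.3 CPM in EV and 27.1 and 33.7 with dHLH-Bmal1 (log2 fold change 0.16, SE 0.18, edgeR adjusted p = 0.622). The one gene of this arm that rose was Nfil3, a repressor at D-box elements, from 5.60, 4.96, 5.40 and 5.68 CPM to 17.6 and 23.3 (log2 fold change 1.94, SE 0.24, edgeR adjusted p = 0.00474), with 1.89 (adjusted p = 0.000437) after the exchange. These 4 calls, and that of Arntl, held without each library in turn.

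The PAR bZIP factors, activators at D-boxes, moved opposite to Nfil3. Of 5 tested output genes 3 fell and none rose, beside 6.72% and 6.51% of all genes. Dbp, for a PAR bZIP factor and a classic Clock-Bmal1 target (chromosome 7, 45705088 to 45710203, + strand), was at 26.6 and 25.6 CPM in EV 1 and 2, 28.7 and 30.3 in WT-Bmal1 1 and 2 and 9.60 and 8.75 in dHLH-Bmal1 1 and 2. It fell below the range of all EV and WT-Bmal1 libraries (log2 fold change -1.5, SE 0.17, edgeR adjusted p = 0.00346), with -1.59 (adjusted p = 0.000228) after the exchange. Dbp overlaps Sphk2 in exonic sequence. Tef, of the same family, was at 98.6, 109.9, 108 and 93.8 CPM against 50.7 and 51.2 with dHLH-Bmal1, so that both dHLH-Bmal1 libraries nearly coincided (log2 fold change -1.03, SE 0.13, edgeR adjusted p = 0.00542). The calls of Dbp and Tef held without each library in turn. Hlf was too low to be tested. Usp2, a deubiquitinase of the clock outputs, was at 44.4 and 40.9 CPM in EV and 29.0 and 28.6 with dHLH-Bmal1 (log2 fold change -0.56, SE 0.14, edgeR adjusted p = 0.0399), a call lost without any 1 of the 4 libraries (adjusted p = 0.0714 to 0.187) and with both doubtful libraries left out (0.155). Whether the DEC repressors, which compete at E-boxes, were called depended on the labels. Bhlhe40 was at 56.6, 40.5, 44.0 and 44.6 CPM against 32.9 and 28.6 with dHLH-Bmal1 (log2 fold change -0.66, SE 0.19, edgeR adjusted p = 0.0655), and it passed after the exchange at -0.71 (adjusted p = 0.0105). Bhlhe41 was at 3.93, 7.22, 3.77 and 5.88 CPM against 9.22 and 16.4 (log2 fold change 1.21, SE 0.42, edgeR adjusted p = 0.113) and likewise passed after it at 1.72 (adjusted p = 0.00414).

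Among the 10 clock repressors and kinases 1 fell and 1 rose, beside 6.72% and 6.51% of all genes, so the list as a whole stood near the background. Per3 was at 34.5 and 29.3 CPM in EV 1 and 2, 33.6 and 30.8 in WT-Bmal1 1 and 2 and 15.0 and 12.9 in dHLH-Bmal1 1 and 2. Its level with dHLH-Bmal1 was below every other library (log2 fold change -1.19, SE 0.18, edgeR adjusted p = 0.00815), a call that held without each library in turn. Cry1, a Cryptochrome repressor, rose from 12.5, 19.1, 14.3 and 13.5 CPM to 26.1 and 42.8, close to the threshold (log2 fold change 1.13, SE 0.30, edgeR adjusted p = 0.0498). It passed more clearly after the exchange, at 1.36 (adjusted p = 0.00563), and did not pass without EV 1 (adjusted p = 0.208) or without dHLH-Bmal1 2 (0.213). Per1 at 6.51 and 4.85 CPM in EV and 4.94 and 4.32 with dHLH-Bmal1, and Per2 at 8.77 and 7.98 against 10.2 and 5.15, overlapped between groups and did not pass (adjusted p = 0.597 and 0.863). Csnk1d and Csnk1e, which encode kinases that phosphorylate Period proteins, had log2 fold changes of 0.084 and 0.084 and also missed the threshold. Over the 4 clock lists, 3 genes rose and 7 fell.

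**Figure D1:**
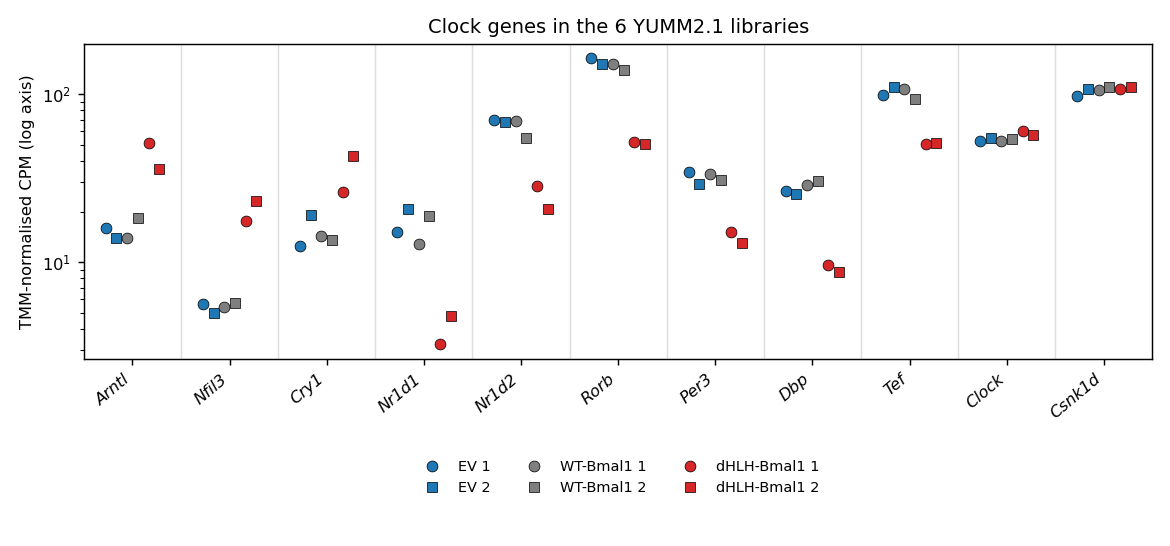
TMM-normalised CPM on a log axis of 11 clock genes in the 6 YUMM2.1 libraries, 1 point for each library, with EV in blue, WT-Bmal1 in grey and dHLH-Bmal1 in red. Arntl, Nfil3 and Cry1 were above all EV and WT-Bmal1 libraries in both dHLH-Bmal1 libraries, Nr1d1, Nr1d2, Rorb, Per3, Dbp and Tef below them, and Clock and Csnk1d stayed close to them.

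The promoters of the clock genes were searched for textbook clock elements. RefSeq windows of GRCm38.p6, from 250 bases before to 50 after a start, were at hand for 21 of 26 clock genes, and none for Per2, Csnk1d and Bhlhe40, among others. Some genes had several windows, and a gene counted as matched if any of them held the motif. The share of all windows counts each window singly, so it is not a like measure. The E-box CACGTG, which reads the same on both strands, was in the windows of 5 of these 21 genes (Per1, Cry1, Ciart, Tef and Bhlhe41) and in 7.15% of all 32851 windows. The full ROR element TAGGTCA, searched on both strands, was in 2 (Arntl and Nfil3) and in 2.61% of all windows. Its core AGGTCA, which every full element also holds, was in 5 (Arntl, Nfil3, Nr1d2, Clock and Per1) and in 16.3% of windows. The D-box TTATGTAA was in 2 (Per3 and Timeless) and in 0.938% of windows, and the form TTACGTAA in 0 of the 21 and 0.119% of windows. The E-boxes, full ROR elements and D-boxes of the genes that rose or fell are printed 5′ to 3′ on the strand of the gene, with the motif in capitals, where the other strand of Nfil3 carries the ROR element. Their places are chr7:113207530-113207558 on the + strand for Arntl, chr13:52981034-52981062 on the - strand for Nfil3, chr10:85185097-85185126 on the - strand for Cry1, chr15:81802534-81802563 and chr15:81811264-81811293 on the + strand for the windows of 2 starts of Tef and, on the - strand, chr4:151044852-151044881 and chr4:151044805-151044834 for Per3.
Arntl, ROR element: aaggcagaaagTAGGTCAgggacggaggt
Nfil3, ROR element: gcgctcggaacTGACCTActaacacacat
Cry1, E-box: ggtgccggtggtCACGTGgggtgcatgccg
Tef, E-box: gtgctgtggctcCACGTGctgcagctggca
Tef, E-box: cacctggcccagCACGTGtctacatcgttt
Per3, D-box: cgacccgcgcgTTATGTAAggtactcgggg
Per3, D-box: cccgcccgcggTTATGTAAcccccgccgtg
Both genes with a full ROR element, Arntl and Nfil3, rose while both REV-ERB genes fell. Of the settings described further on, both were also called higher in the cells with a control hairpin. In the Bmal1-null clone aC3, both REV-ERB genes fell as well, but neither Arntl nor Nfil3 was called higher. In the line YUMM1.7, Arntl was called higher and Nfil3 was not. Of the E-box genes, Tef fell, Cry1 rose, and Per1, Ciart and Bhlhe41 did not pass as labelled, so the matched genes did not share a direction. Per3, with the D-boxes, fell, and Timeless, the other gene with a D-box, was not called. Of the genes with the ROR core alone, Nr1d2 fell and Clock and Per1 did not pass. Nr1d1, Nr1d2, Rorb, Dbp and Usp2 fell and had windows, but these held no E-box, full ROR element or D-box. A match is a description of the sequence, and its part in the levels was not tested.

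Sox10 and other melanocytic and neural crest genes fell, while a set of mesenchymal regulators rose. Of 12 tested melanocytic genes 4 fell and none rose, beside 6.72% and 6.51% of all genes. The list median was -0.37 on the log2 scale beside -0.011 over all genes. After the exchange 5 fell and 1 rose, beside 13.5% and 15.2% of all genes. Sox10, the transcription factor of melanocytes and Schwann cells (chromosome 15, 79154908 to 79165240, - strand), was at 504 and 484 CPM in EV 1 and 2, 542 and 432 in WT-Bmal1 1 and 2 and 66.5 and 73.5 in dHLH-Bmal1 1 and 2. Its dHLH-Bmal1 libraries were far below all others (log2 fold change -2.82, SE 0.16, edgeR adjusted p = 0.000621), with -2.90 (adjusted p = 2.41e-06) after the exchange. Erbb3, the neuregulin receptor of the neural crest, was at 139 and 76.4 CPM in EV 1 and 2, 135 and 85.4 in WT-Bmal1 1 and 2 and 9.50 and 5.27 in dHLH-Bmal1 1 and 2 (log2 fold change -3.85, SE 0.42, edgeR adjusted p = 0.00333). Gpnmb, a melanosome glycoprotein, was at 81.7, 90.0, 96.9 and 89.7 CPM against 34.5 and 40.3 with dHLH-Bmal1 (log2 fold change -1.20, SE 0.14, edgeR adjusted p = 0.00401). Mitf, the master regulator of pigment cells, was at 14.5 and 14.2 CPM in EV and 15.0 and 21.2 with dHLH-Bmal1 and did not pass (log2 fold change 0.33, SE 0.22, edgeR adjusted p = 0.378). S100b at 218 and 256 against 210.2 and 237 CPM and Pax3 at 46.9 and 41.0 against 38.3 and 36.2 also did not pass (adjusted p = 0.734 and 0.322). With both doubtful libraries left out, the same count of 4 melanocytic genes fell.

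Of 19 tested mesenchymal regulators and markers, 6 rose (Prrx2, Klf4, Snai2, Twist1, Axl and Pdgfrb) and 1 fell (Ngfr). Of all genes 6.51% rose and 6.72% fell. The list median was 0.91, and 11 genes of the list rose and 2 fell after the exchange, beside 15.2% and 13.5% of all genes. Klf4, a Kruppel-like transcription factor, was at 32.7 and 72.6 CPM in EV 1 and 2, 35.1 and 67.2 in WT-Bmal1 1 and 2 and 423 and 404 in dHLH-Bmal1 1 and 2. The dHLH-Bmal1 level was several times every other library, and EV 1 and WT-Bmal1 1 sat together below EV 2 and WT-Bmal1 2 (log2 fold change 2.98, SE 0.43, edgeR adjusted p = 0.00729). Snai2, the EMT factor Slug, was at 10.8 and 14.3 CPM in EV 1 and 2, 8.82 and 15.7 in WT-Bmal1 1 and 2 and 90.5 and 60.3 in dHLH-Bmal1 1 and 2 (log2 fold change 2.59, SE 0.33, edgeR adjusted p = 0.00512). Ngfr, the neurotrophin receptor that marks neural crest-like melanoma cells, fell from 391, 384, 404 and 363 CPM to 77.7 and 98.4 (log2 fold change -2.14, SE 0.15, edgeR adjusted p = 0.00121). These 3 calls held without each library in turn. Axl, a receptor tyrosine kinase of dedifferentiated melanoma, was at 384 and 568 CPM in EV 1 and 2, 399.7 and 522 in WT-Bmal1 1 and 2 and 806 and 1064 in dHLH-Bmal1 1 and 2 (log2 fold change 0.97, SE 0.24, edgeR adjusted p = 0.0398). Prrx2, a mesenchymal homeobox factor, was at 0.668 and 3.88 CPM in EV 1 and 2, 0.942 and 4.19 in WT-Bmal1 1 and 2 and 22 and 18.5 in dHLH-Bmal1 1 and 2 (log2 fold change 3.21, SE 0.80, edgeR adjusted p = 0.0413). Both passed after the exchange, at 1.25 (adjusted p = 0.000299) and 4.64 (adjusted p = 1.22e-05). Neither these nor Pdgfrb (log2 fold change 2.30, SE 0.57, edgeR adjusted p = 0.0415) passed without EV 1, without dHLH-Bmal1 1 or without dHLH-Bmal1 2 (adjusted p = 0.0558 to 0.162). Twist1 (log2 fold change 0.91, SE 0.21, edgeR adjusted p = 0.0341) did not pass without any 1 of the 4 libraries (0.0567 to 0.115). Several genes of this list, Prrx2, Klf4, Snai2 and Axl among them, were named by the study from these same libraries, so the count is not independent evidence of a direction. Without EV 1, without dHLH-Bmal1 1 and without dHLH-Bmal1 2, 2 genes of the list rose each time, without EV 2 6, and with both doubtful libraries left out 8.

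Sox9 (chromosome 11, 112782224 to 112787760, + strand) depended on the labels. It was at 18.5 and 87.2 CPM in EV 1 and 2, 19.7 and 86.1 in WT-Bmal1 1 and 2 and 211 and 272 in dHLH-Bmal1 1 and 2. The dHLH-Bmal1 libraries were the highest of the 6, while EV 1 matched WT-Bmal1 1 and EV 2 matched WT-Bmal1 2. As labelled, the distance between EV 1 and EV 2 went with an adjusted p above the threshold (log2 fold change 2.2, SE 0.81, edgeR adjusted p = 0.128), and after the exchange it rose by 3.66 (adjusted p = 2.41e-06). With both doubtful libraries left out, EV 1 was the only EV library. That fit held no spread between EV libraries and cannot decide between the labellings. The LIM-only cofactor Lmo1 had 1 and 12 counts in EV 1 and 2, 1 and 24 in WT-Bmal1 1 and 2 and 50 and 37 in dHLH-Bmal1 1 and 2. The EMT factor Twist2 was at 2.59 and 4.1 CPM in EV 1 and 2, 0.856 and 4.88 in WT-Bmal1 1 and 2 and 7.70 and 9.23 in dHLH-Bmal1 1 and 2. Both were highest in the dHLH-Bmal1 libraries and lowest in EV 1 and WT-Bmal1 1, and neither passed as labelled (adjusted p = 0.191 and 0.234). After the exchange Twist2 rose by 2.28 (adjusted p = 0.00532) and Lmo1 passed as well, where a fold against 1 count in EV 1 and in WT-Bmal1 1 is not given. After the exchange 2242 genes were called that were not as labelled, and 22 were called only as labelled. Over all genes tested, the median absolute log2 difference, with 0.5 added to each CPM, was 0.275 between EV 1 and EV 2 and 0.159 between EV 1 and WT-Bmal1 1.

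**Figure D2:**
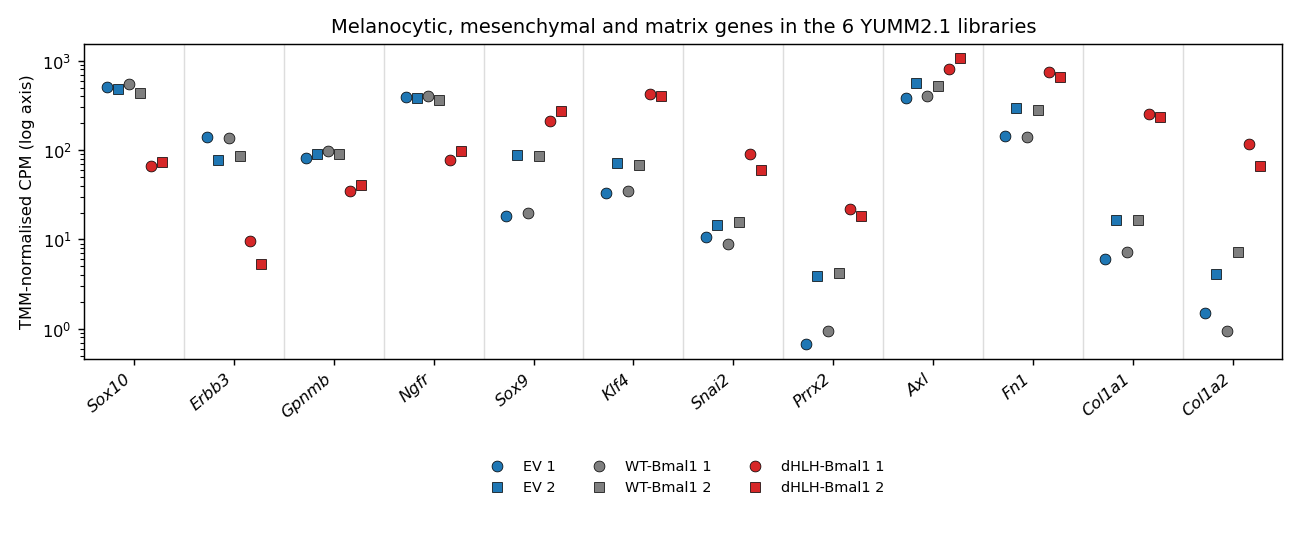
TMM-normalised CPM on a log axis of 12 melanocytic, mesenchymal and matrix genes in the 6 YUMM2.1 libraries, 1 point for each library, with EV in blue, WT-Bmal1 in grey and dHLH-Bmal1 in red. Sox10, Erbb3, Gpnmb and Ngfr were lowest, and the other genes highest, in both dHLH-Bmal1 libraries, and for Sox9, Klf4, Prrx2, Fn1 and the collagens the circles of EV 1 and WT-Bmal1 1 lie below the squares of EV 2 and WT-Bmal1 2.

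**Figure D3:**
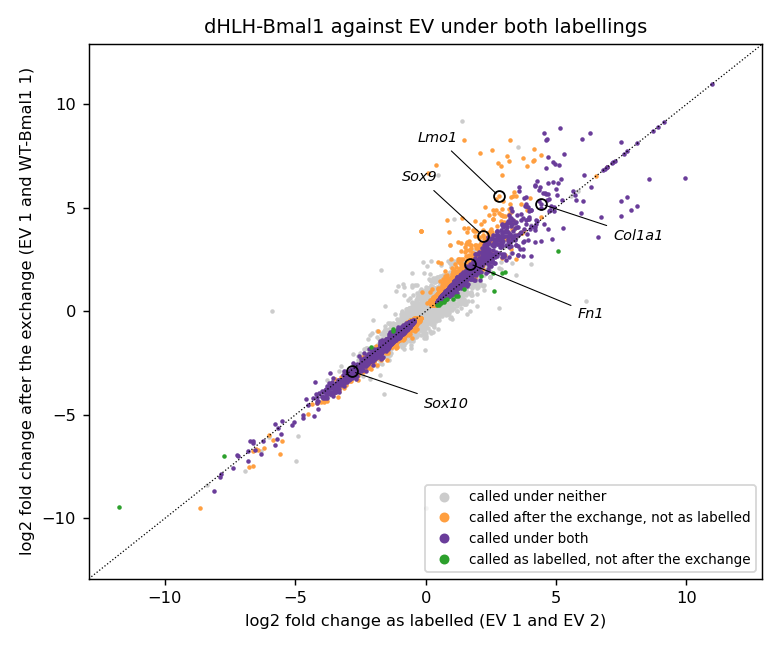
Log2 fold change of dHLH-Bmal1 against EV for the genes tested, as labelled on the horizontal axis and with WT-Bmal1 1 in the place of EV 2 on the vertical axis, coloured by where a gene was called. The 1872 genes called under both changed in the same direction, though not always by the same amount. Sox9 and Lmo1 are among those called only after the exchange.

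Collagens and other matrix genes rose in part. Fn1 and Col1a1 were named by the study from these same libraries, so the counts here are not independent evidence of a direction. Of 30 tested extracellular matrix genes, 15 rose and 3 fell, beside 6.51% and 6.72% of all genes. The list median was 0.62, and 17 rose and 5 fell after the exchange, beside 15.2% and 13.5% of all genes. Col1a1, the alpha 1 chain of type I collagen (chromosome 11, 94936224 to 94953042, + strand), was at 6.10 and 16.5 CPM in EV 1 and 2, 7.19 and 16.3 in WT-Bmal1 1 and 2 and 251 and 233 in dHLH-Bmal1 1 and 2. It was low in all 4 other libraries and rose with dHLH-Bmal1 (log2 fold change 4.44, SE 0.52, edgeR adjusted p = 0.00399), with 5.19 (adjusted p = 5.36e-07) after the exchange. Col1a2, the partner chain, was at 1.5 and 4.1 CPM in EV 1 and 2, 0.942 and 7.18 in WT-Bmal1 1 and 2 and 117 and 66.3 in dHLH-Bmal1 1 and 2 (log2 fold change 5.08, SE 0.81, edgeR adjusted p = 0.0106). The proteoglycan gene Bgn was at 45.6 and 115 CPM in EV 1 and 2, 48.3 and 106 in WT-Bmal1 1 and 2 and 526 and 658 in dHLH-Bmal1 1 and 2 (log2 fold change 2.89, SE 0.51, edgeR adjusted p = 0.0141). Loxl2, a lysyl oxidase that crosslinks collagen, was at 5.76 and 8.09 CPM in EV 1 and 2, 7.28 and 7.68 in WT-Bmal1 1 and 2 and 87.7 and 59.5 in dHLH-Bmal1 1 and 2 (log2 fold change 3.42, SE 0.26, edgeR adjusted p = 0.00149). The matricellular gene Thbs1 rose from 6.68, 7.98, 7.02 and 10.1 to 41.0 and 33.3 CPM (log2 fold change 2.35, SE 0.25, edgeR adjusted p = 0.00290). Tnc, of the same class, rose from 29.6, 29.9, 27.7 and 30.7 to 108 and 129 (log2 fold change 1.99, SE 0.15, edgeR adjusted p = 0.00134). All of these kept the call without each library in turn.

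Fibronectin, Fn1, was at 145 and 292 CPM in EV 1 and 2, 139 and 282 in WT-Bmal1 1 and 2 and 748 and 659.8 in dHLH-Bmal1 1 and 2 (log2 fold change 1.69, SE 0.40, edgeR adjusted p = 0.0375). It passed after the exchange at 2.31 (adjusted p = 3.29e-06), and not without EV 1, dHLH-Bmal1 1 or dHLH-Bmal1 2 (adjusted p = 0.0933 to 0.122). The 3 matrix genes that fell were Postn, Thbs2 and Col12a1. Postn, for periostin, fell from 139, 97.4, 138 and 106 CPM to 42.1 and 33.2 (log2 fold change -1.65, SE 0.23, edgeR adjusted p = 0.00669). Thbs2 fell from 176, 136, 168 and 134 to 78.8 and 67.1 (log2 fold change -1.09, SE 0.18, edgeR adjusted p = 0.0127). Without EV 1 or dHLH-Bmal1 2, Thbs2 did not pass (0.0535 and 0.0631), and Col12a1 (-1.52 on the log2 scale) did not without any 1 of the 4 libraries (0.0601 to 0.167). Sparc, at 3048 and 3809 CPM in EV and 2956 and 4095 with dHLH-Bmal1, and Mmp2, at 78.9 and 72.3 against 92.1 and 86.9, did not pass (adjusted p = 0.916 and 0.315). The matrix genes that rose numbered 17 after the exchange, 13 with both doubtful libraries left out, and 10, 14, 10 and 14 without EV 1, EV 2, dHLH-Bmal1 1 and dHLH-Bmal1 2.

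Actin-linked targets of MRTF and SRF, the transcription factors that respond to actin polymerization, rose in part. Of 26 tested genes 9 rose and none fell, beside 6.51% and 6.72% of all genes, with a list median of 0.55. Ankrd1, a target shared with YAP, was at 0.418 and 2.48 CPM in EV 1 and 2, 0.257 and 3.99 in WT-Bmal1 1 and 2 and 50.5 and 45.1 in dHLH-Bmal1 1 and 2 (log2 fold change 5.12, SE 0.94, edgeR adjusted p = 0.0161). It did not pass without EV 1 (adjusted p = 0.0532) or dHLH-Bmal1 1 (0.0528). Cnn2, for calponin 2, rose from 85.6, 76.8, 73.5 and 84.1 CPM to 181 and 140.2 (log2 fold change 0.99, SE 0.16, edgeR adjusted p = 0.0121), and it was alone among the 9 in keeping the call without each library in turn. Srf at 38.8 and 38.7 CPM in EV and 38.6 and 36.7 with dHLH-Bmal1 did not pass (log2 fold change -0.043, SE 0.13, edgeR adjusted p = 0.872). Its coactivator gene Mrtfa, at 8.94 and 11.4 against 14.6 and 16.5 CPM, and Myh9, the non-muscle myosin heavy chain, at 586 and 745 against 754 and 918, did not pass as labelled (adjusted p = 0.190 and 0.245) and did after the exchange, with 0.80 (adjusted p = 0.0155) and 0.49 (adjusted p = 0.0166). The count of targets that rose went from 17 after the exchange to 6 with both doubtful libraries left out, and to 2, 7, 3 and 4 without EV 1, EV 2, dHLH-Bmal1 1 and dHLH-Bmal1 2.

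AP-1 genes differed by member. Of 18 tested AP-1 and related bZIP factors, 6 rose and none fell, beside 6.51% and 6.72% of all genes. The list median was 0.14, and 7 rose and 2 fell after the exchange, beside 15.2% and 13.5% of all genes. Fosl2, a FOS family member, was at 38.8 and 43.6 CPM in EV 1 and 2, 43.5 and 43.3 in WT-Bmal1 1 and 2 and 116 and 102 in dHLH-Bmal1 1 and 2 (log2 fold change 1.40, SE 0.14, edgeR adjusted p = 0.00228). Atf4, the effector of the integrated stress response, rose from 282, 358, 305 and 342 to 618 and 642 CPM (log2 fold change 0.98, SE 0.15, edgeR adjusted p = 0.00952). Atf6, a sensor of the unfolded protein response, rose from 37.3, 38.5, 33.5 and 37.1 to 80.6 and 72.9 (log2 fold change 1.02, SE 0.14, edgeR adjusted p = 0.00595). Those 3 held without each library in turn. The study named the AP-1 family from these same libraries, so the count is not independent evidence of its direction. Junb went from 9.10, 12.7, 9.16 and 13.5 to 34.0 and 26.7 CPM (log2 fold change 1.48, SE 0.27, edgeR adjusted p = 0.0165) and Jund from 42.5, 54.2, 51.2 and 48.0 to 90.2 and 123 (log2 fold change 1.14, SE 0.19, edgeR adjusted p = 0.0129). Neither passed without EV 1 (adjusted p = 0.0797 and 0.0655), Junb also not without dHLH-Bmal1 1 (0.0688) and Jund not without dHLH-Bmal1 2 (0.0520). Jun, at 182 and 202 CPM in EV and 167 and 193 with dHLH-Bmal1, and Fosl1, at 38.0 and 42.4 against 54.0 and 50.9, did not pass (adjusted p = 0.695 and 0.280). Atf5 rose by 1.05 on the log2 scale (edgeR adjusted p = 0.0241), but not without EV 1, dHLH-Bmal1 1 or dHLH-Bmal1 2 (0.0671 to 0.0825). Fos was lower with dHLH-Bmal1, at 3.93 and 1.51 CPM in EV against 0.475 and 0.599, did not pass as labelled (log2 fold change -2.34, SE 0.76, edgeR adjusted p = 0.0902) and passed after the exchange at -2.71 (adjusted p = 0.00396).

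A group of output genes of MAPK signalling fell. Of 19 tested immediate early and MAPK feedback genes, 9 fell and none rose, beside 6.72% and 6.51% of all genes. The list median was -0.66, and 11 fell and 2 rose after the exchange, beside 13.5% and 15.2% of all genes. Etv5, an ETS factor induced by ERK, was at 233 and 255 CPM in EV 1 and 2, 249 and 246 in WT-Bmal1 1 and 2 and 63.1 and 71.8 in dHLH-Bmal1 1 and 2 (log2 fold change -1.85, SE 0.13, edgeR adjusted p = 0.00103). Egr2, an immediate early zinc finger gene, fell from 9.52, 8.73, 7.88 and 9.67 CPM to 0.570 and 0.719 (log2 fold change -3.81, SE 0.33, edgeR adjusted p = 0.00169). Phlda1 fell from 324, 263, 295 and 271 to 125 and 124 (log2 fold change -1.24, SE 0.14, edgeR adjusted p = 0.00376). Spry2, a Sprouty inhibitor of the pathway, fell from 72.6, 70.1, 67.0 and 71.1 to 40.4 and 41.6 CPM (log2 fold change -0.80, SE 0.12, edgeR adjusted p = 0.00931). All of these held without each library in turn. Dusp6, the phosphatase that switches ERK off, was at 458 and 314 CPM in EV 1 and 2, 414 and 329 in WT-Bmal1 1 and 2 and 133 and 60.5 in dHLH-Bmal1 1 and 2 (log2 fold change -2.0, SE 0.37, edgeR adjusted p = 0.0164), and did not pass without EV 1 (adjusted p = 0.0573). Ier3 at 301 and 332 CPM in EV and 209 and 354 with dHLH-Bmal1, and Dusp4 at 15.6 and 15.5 against 12.4 and 13.9, did not pass (adjusted p = 0.687 and 0.471). Without EV 1 the list held 4 genes that fell, without EV 2 9, without dHLH-Bmal1 1 8 and without dHLH-Bmal1 2 6, and 8 with both doubtful libraries left out.

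Among genes of the hypoxia response more rose than fell, and no label describes a low oxygen tension. The study reported a hypoxia signature with dHLH-Bmal1 from these same libraries, so the counts here are not independent evidence of a direction. Of 35 tested genes 18 rose and 1 fell (Pfkfb3), beside 6.51% and 6.72% of all genes. The list median was 0.68, and 23 rose and 3 fell after the exchange, beside 15.2% and 13.5% of all genes. Bnip3, a mitophagy receptor induced by HIF, was at 134 and 137 CPM in EV 1 and 2, 129.7 and 126 in WT-Bmal1 1 and 2 and 428 and 561 in dHLH-Bmal1 1 and 2 (log2 fold change 1.87, SE 0.16, edgeR adjusted p = 0.00154). P4ha2, a collagen-modifying enzyme, rose from 23.4, 19.7, 22.4 and 23.7 to 76.3 and 80.7 CPM (log2 fold change 1.86, SE 0.15, edgeR adjusted p = 0.00153). Plod2, another, rose from 111, 106, 102 and 107 to 263 and 251 (log2 fold change 1.24, SE 0.12, edgeR adjusted p = 0.00205). Ndrg1, a stress gene, rose from 20.0, 19.2, 23.0 and 18.5 to 70.3 and 57.9 CPM (log2 fold change 1.71, SE 0.18, edgeR adjusted p = 0.00285). Ddit4, an inhibitor of mTORC1, rose from 58.7, 69.5, 61.1 and 77.8 to 148 and 189.5 (log2 fold change 1.40, SE 0.19, edgeR adjusted p = 0.00595). Ero1l, which oxidizes proteins in the ER, rose from 123, 98.3, 104 and 109 to 256 and 275 CPM (log2 fold change 1.26, SE 0.14, edgeR adjusted p = 0.00383). These 6 held without each library in turn. Smaller changes were seen in glycolytic members. Ldha, lactate dehydrogenase, was at 1050.2 and 951 CPM in EV and 1415 and 1371 with dHLH-Bmal1 (log2 fold change 0.48, SE 0.12, edgeR adjusted p = 0.0395), and Pgk1 at 965 and 953 against 1342 and 1393 (log2 fold change 0.51, SE 0.11, edgeR adjusted p = 0.0257). Both lost the call without any 1 of the 4 libraries (adjusted p = 0.0612 to 0.163), as did the falling Pfkfb3 (log2 fold change -1.12, SE 0.24, edgeR adjusted p = 0.0266, and 0.0679 to 0.0952 without a library). Hif1a itself, at 123 and 109 CPM in EV and 104 and 111 with dHLH-Bmal1, did not pass (log2 fold change -0.11, SE 0.13, edgeR adjusted p = 0.622). The genes that rose numbered 23 after the exchange, 13 with both doubtful libraries left out, and 11, 12, 10 and 11 without EV 1, EV 2, dHLH-Bmal1 1 and dHLH-Bmal1 2.

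Of 15 tested secreted cytokines and growth factors, 2 rose and 2 fell, beside 6.51% and 6.72% of all genes. With the exchange 5 rose and 2 fell, beside 15.2% and 13.5% of all genes. Csf1, the growth factor of macrophages, was at 27.6 and 26.7 CPM in EV 1 and 2, 23.2 and 30.7 in WT-Bmal1 1 and 2 and 148 and 105 in dHLH-Bmal1 1 and 2 (log2 fold change 2.22, SE 0.21, edgeR adjusted p = 0.00228). Tgfb2, a TGF-beta ligand, fell from 110.0, 87.5, 105 and 93.0 CPM to 19.2 and 18.2 (log2 fold change -2.40, SE 0.16, edgeR adjusted p = 0.00103). Both held without each library in turn. Vegfa, the angiogenic factor, rose from 24.1, 22.4, 24.7 and 27.0 to 55.4 and 41.6 CPM (log2 fold change 1.06, SE 0.18, edgeR adjusted p = 0.0137) and Tgfb1 fell from 27.8, 28.5, 37.0 and 27.2 to 10.5 and 13.9 (log2 fold change -1.21, SE 0.22, edgeR adjusted p = 0.0164). Neither passed without EV 1 (0.0557 and 0.0566) or dHLH-Bmal1 1 (0.0535 and 0.0691). Csf2, Il23a and Igfbp6 were too low to be tested. Ccl2, a monocyte chemokine, was at 17.4 and 14.8 CPM in EV and 14.8 and 6.47 with dHLH-Bmal1 and Il11, a cytokine of the IL-6 family, at 38.2 and 52.5 against 56.3 and 73.8, and both did not pass (adjusted p = 0.405 and 0.170). Of 18 tested MHC class I and interferon genes none rose and 2 fell, a share not far from the 6.72% of all genes. After the exchange 1 rose and 5 fell, beside 15.2% and 13.5% of all genes. Bst2, an antiviral membrane protein, fell from 12.4, 18.4, 15.7 and 14.2 to 4.75 and 4.79 CPM (log2 fold change -1.69, SE 0.26, edgeR adjusted p = 0.00989). Ifit3 fell from 8.02, 4.85, 7.88 and 5.38 to 1.33 and 2.64 (log2 fold change -1.72, SE 0.45, edgeR adjusted p = 0.0494), though not without EV 1, dHLH-Bmal1 1 or dHLH-Bmal1 2 (0.0644 to 0.220). B2m, the light chain of class I molecules, was at 460.3 and 568 CPM in EV and 617 and 681 with dHLH-Bmal1 (log2 fold change 0.34, SE 0.15, edgeR adjusted p = 0.184). H2-D1 was at 49.6 and 34.2 against 58.1 and 37.2 (log2 fold change 0.18, SE 0.26, edgeR adjusted p = 0.698).

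Of 8 tested beta-catenin and Wnt targets 2 fell and none rose, beside 6.72% and 6.51% of all genes. With the exchange 3 fell and 1 rose, beside 13.5% and 15.2% of all genes. Nkd2, a Wnt inhibitor, fell from 162, 178, 179.7 and 166 CPM to 42.8 and 47.6 (log2 fold change -1.91, SE 0.13, edgeR adjusted p = 0.00103). Lgr5, the R-spondin receptor, fell from 31.2, 19.8, 29.7 and 25.1 to 8.93 and 7.55 (log2 fold change -1.63, SE 0.26, edgeR adjusted p = 0.0110) and did not pass without dHLH-Bmal1 2 (0.0563). Axin2, a common readout of the pathway, was at 2.17 and 1.29 CPM in EV and 3.52 and 3.72 with dHLH-Bmal1 and did not pass (log2 fold change 1.04, SE 0.43, edgeR adjusted p = 0.170). Of 26 tested cell cycle genes 3 fell (Ccne1, Mcm2 and Rrm2) and none rose, beside 6.72% and 6.51% of all genes. Ccne1, for cyclin E1, fell from 31.2, 32.2, 24.0 and 28.5 to 13.4 and 12.6 CPM (log2 fold change -1.29, SE 0.17, edgeR adjusted p = 0.00586). Mcm2, of the replicative helicase, fell from 104, 97.0, 97.1 and 102 to 67.4 and 70.8 CPM and Rrm2, of ribonucleotide reductase, from 98.6, 93.2, 90.5 and 91.9 to 57.9 and 58.1. Mcm2 lost the call without any 1 of the 4 libraries (adjusted p = 0.0549 to 0.145) and Rrm2 without EV 1 (0.0598). Mki67, the Ki67 gene, was at 585 and 667 CPM in EV and 485 and 585 with dHLH-Bmal1 (log2 fold change -0.23, SE 0.14, edgeR adjusted p = 0.350). After the exchange 9 cell cycle genes fell, and 7 with both doubtful libraries left out, but 1 without EV 1, 5 without EV 2, 3 without dHLH-Bmal1 1 and 2 without dHLH-Bmal1 2. In the cells with a control hairpin described further on, 16 of the 26 fell and 1 rose, beside 17.6% of all genes in each direction.

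**Figure D4:**
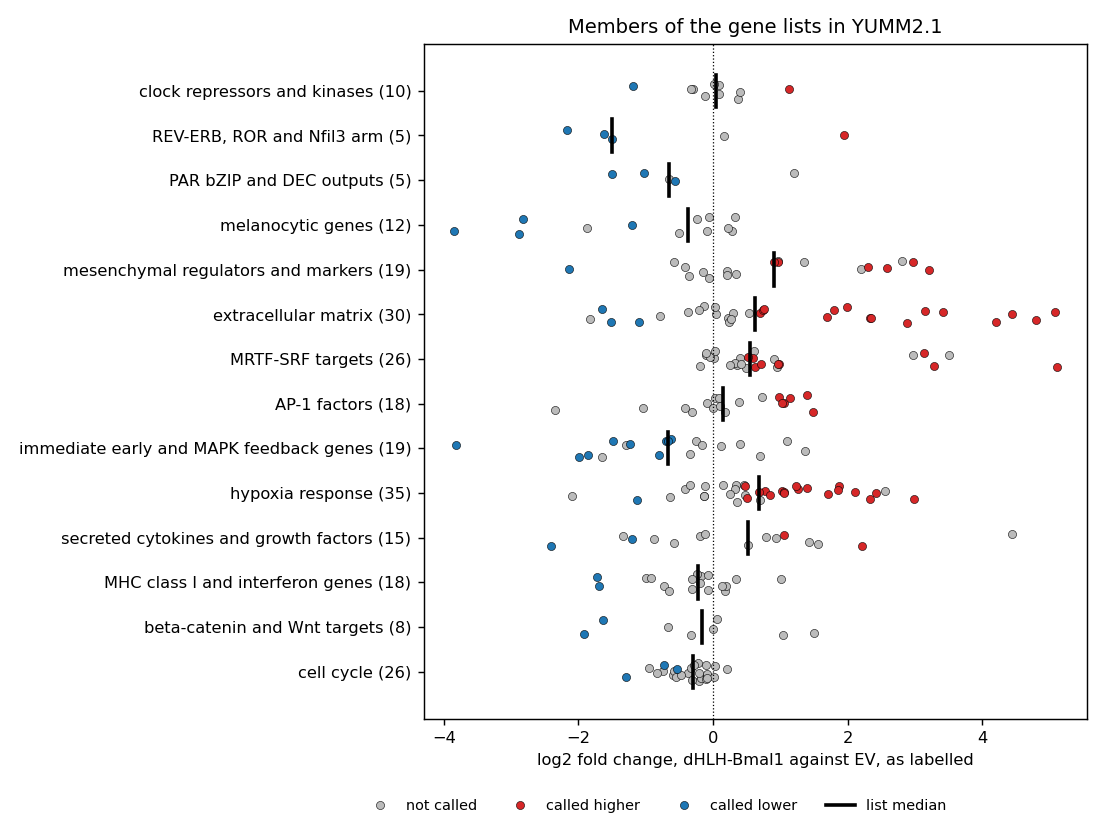
Log2 fold change of dHLH-Bmal1 against EV as labelled for the tested members of the gene lists, with the number tested in brackets, red and blue points for genes called higher and lower, grey points for those not called and a bar at the list median. The medians lie between -1.5 for the REV-ERB, ROR and Nfil3 arm and 0.91 for the mesenchymal list.

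The largest changes were taken from protein-coding genes called under both labellings with a mean of at least 5 CPM. Siglecg, a sialic acid-binding lectin, rose from 0.334, 0.755, 0.343 and 0.698 CPM to 14.9 and 20.0 (log2 fold change 5.02, SE 0.46, edgeR adjusted p = 0.00194). The small heat shock gene Hspb7 rose from 0.334, 0.108, 0.257 and 1.1 to 20.0 and 20.3 (log2 fold change 6.36, SE 0.61, edgeR adjusted p = 0.00219). Ccn4, a matricellular gene, went from 0.585, 2.37, 0.599 and 2.69 to 57.6 and 45.2 CPM (log2 fold change 5.18, SE 0.67, edgeR adjusted p = 0.00530). Gdf15, a stress cytokine, had 3 and 2 counts in EV 1 and 2 and 181 and 72 in dHLH-Bmal1 1 and 2 (edgeR adjusted p = 0.00261). Slco4a1, an organic anion transporter, had 1 and 0 against 107 and 92, and 1700012B09Rik 0 and 3 against 288 and 236 (adjusted p = 0.00153 and 0.00169). In the shNC cells, Slco4a1 was at 6.68 and 7.26 CPM in EV and 20.8 and 21.7 with dHLH-Bmal1. Its effects in both sets differed (edgeR adjusted p = 0.00191, and 0.0222 after the exchange). Sap18b had 0 counts in all 4 EV and WT-Bmal1 libraries and 173 and 275 with dHLH-Bmal1, which is at least 86.1-fold higher than a floor of 3 counts per library. It was however present in the EV libraries of the shNC cells described further on, at 14.8 and 28.8 CPM. Plac9a, at 0 counts in EV 1 and 2 but 27 in WT-Bmal1 2, was at least 41.4-fold higher and lost the call without dHLH-Bmal1 1 (adjusted p = 0.0512). Both have near-identical copies among which reads can be divided, and are uncertain. Adgrl4, an adhesion receptor, rose from 0.919, 3.88, 0.0856 and 5.28 to 69.3 and 75.2 CPM (log2 fold change 4.97, SE 1.00, edgeR adjusted p = 0.0214), a call lost without EV 1 or either dHLH-Bmal1 library (0.0579 to 0.0785).

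Erbb3, described above, was also among the 12 largest falls. Ptprz1, a receptor phosphatase, was at 27.8 and 12.2 CPM in EV 1 and 2, 27.1 and 13.0 in WT-Bmal1 1 and 2 and 0.190 and 0.599 in dHLH-Bmal1 1 and 2 (log2 fold change -5.70, SE 0.74, edgeR adjusted p = 0.00544). Col15a1, a basement membrane collagen, was at 25.9 and 14.4 CPM in EV 1 and 2, 26.3 and 18.0 in WT-Bmal1 1 and 2 and 0.475 and 0.360 in dHLH-Bmal1 1 and 2 (log2 fold change -5.54, SE 0.48, edgeR adjusted p = 0.00169). Both were nearly gone in dHLH-Bmal1. Pou3f1, a POU factor of myelinating cells, fell from 112, 69.9, 90.9 and 74.6 to 3.99 and 7.79 CPM (log2 fold change -3.97, SE 0.36, edgeR adjusted p = 0.00194). Ajap1, an adherens junction protein, fell from 322, 213, 289.5 and 204 to 14.1 and 16.9 (log2 fold change -4.11, SE 0.28, edgeR adjusted p = 0.00103). Gpd1, glycerol-3-phosphate dehydrogenase, fell from 28.4, 27.6, 25.1 and 22.6 to 2.19 and 1.92 (log2 fold change -3.76, SE 0.21, edgeR adjusted p = 0.000621). Atp1b2, Pdzrn4, Cmtm5, Plxnb3, Stk32a and Ccdc13 fell as well, with log2 changes of -5.14, -4.69, -3.93, -3.79, -3.84 and -3.77.

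Among the genes with the highest CPM that fell, Chl1, a neural cell adhesion molecule, was at 1203 and 1091 CPM in EV 1 and 2, 1351 and 1056 in WT-Bmal1 1 and 2 and 95.6 and 108 in dHLH-Bmal1 1 and 2 (log2 fold change -3.49, SE 0.17, edgeR adjusted p = 0.000621). Fabp5, a fatty acid-binding protein, fell from 1032, 797, 1104 and 816 to 292 and 316 CPM (log2 fold change -1.59, SE 0.19, edgeR adjusted p = 0.00449). Dag1, dystroglycan, fell from 825, 773, 856 and 826 to 355 and 342 (log2 fold change -1.20, SE 0.11, edgeR adjusted p = 0.00219) and Mier1 from 1009, 1199, 1125 and 1193 to 494 and 586 (log2 fold change -1.03, SE 0.15, edgeR adjusted p = 0.00686). These 4 held without each library in turn, and the other 4 did not. Cyclin D1, Ccnd1, fell from 5331, 4422, 5076 and 4748 to 3319 and 2706 CPM (log2 fold change -0.70, SE 0.15, edgeR adjusted p = 0.0282), and did not pass without EV 1 (0.139) or dHLH-Bmal1 2 (0.0966). Dbi, for the acyl-CoA-binding protein, fell from 2300.4, 2440.0, 2759 and 2398 to 1053 and 1443 CPM (log2 fold change -0.93, SE 0.17, edgeR adjusted p = 0.0168) but not without EV 1 (0.0537) or with both doubtful libraries left out (0.0578). Tuba1a, an alpha-tubulin with close paralogues, had a log2 change of -0.87 (edgeR adjusted p = 0.0313) and lost the call without EV 1 or either dHLH-Bmal1 library (0.0784 to 0.130). Lbh, a transcriptional cofactor, had -0.62 (edgeR adjusted p = 0.0446) and lost it without EV 1, EV 2 or dHLH-Bmal1 1 (0.0947 to 0.143) and with both doubtful libraries left out (0.167). Of the abundant genes that rose, S100a6, a calcium-binding protein, went from 1786, 1821, 1723 and 2011 to 3660.2 and 3161 CPM (log2 fold change 0.92, SE 0.14, edgeR adjusted p = 0.00805) and held without each library in turn. Its neighbour S100a4 went from 2832, 3673, 2976 and 3580.0 to 5656 and 6879.9 CPM (log2 fold change 0.95, SE 0.18, edgeR adjusted p = 0.0176) but did not pass without EV 1 (0.0874) or dHLH-Bmal1 2 (0.0686). The other abundant genes, Eif2s2, Rps20, Pkm, Pgam1, Rps14 and Rps29, rose by 0.81, 0.77, 0.76, 0.85, 0.88 and 0.62 on the log2 scale, and each lost the call without EV 1 (0.0917 to 0.227) and without dHLH-Bmal1 2 (0.0613 to 0.169). Rps20, Rps14 and Rps29 belong to a gene family with many processed copies, and their counts are uncertain to that extent.

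The same constructs were also measured in YUMM2.1 cells with a control hairpin (shNC), in separate libraries made from the same sublines after puromycin selection. There 2441 of 13876 genes rose (17.6%) and 2445 fell (17.6%). Of 1816 genes called as labelled that were tested in the shNC cells, 1740 (95.8%) moved in the same direction, 1431 (78.8%) were called in it, and 16 were called in the opposite one. Over all genes tested in both sets, called or not, 72.9% moved in the same direction. Col1a1 rose by 6.57 (SE 0.16, adjusted p = 1.36e-12) on the log2 scale in the shNC cells, Klf4 by 2.75 (SE 0.091, adjusted p = 2.60e-11) and Sox9 by 1.53 (SE 0.094, adjusted p = 1.87e-08), while Sox10 changed by -3.77 (SE 0.11, adjusted p = 5.12e-12) and Etv5 by -1.5 (SE 0.11, adjusted p = 1.27e-07). Of the lists, 13 of the 15 matrix genes that rose were called in the same direction there, 9 of 9 MRTF-SRF targets, 6 of 6 AP-1 factors, 8 of 9 MAPK output genes that fell and 11 of 18 hypoxia genes. Over all members of these lists tested in both sets, the shNC cells had 16 matrix genes higher and 7 lower of 29. MRTF-SRF targets had 16 higher and 2 lower of 26, and AP-1 factors 6 and 5 of 17. MAPK output genes had 2 higher and 13 lower of 19, and hypoxia genes 14 and 7 of 34. The test of the difference between both effects called 68 of 14737 genes (0.461%), or 839 after the exchange.

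Clock outputs were also compared between both sets. Dbp was at 12.2 and 8.66 CPM in the shNC EV libraries and 10.4 and 10.5 with dHLH-Bmal1, a difference of 0.0043 (SE 0.23, adjusted p = 0.991), and Tef at 47.1 and 55.7 against 48.6 and 57.4, a difference of 0.031 (SE 0.13, adjusted p = 0.885). The effect without the hairpin minus that with it was -1.1 (SE 0.20, adjusted p = 0.0431) for Tef. For Dbp it was -1.53 (SE 0.30, adjusted p = 0.0520) as labelled and -1.61 (adjusted p = 0.00622) after the exchange. Nr1d1 fell in the shNC cells too, with a log2 fold change of -1.27 (SE 0.27, adjusted p = 0.00219). Nr1d2 differed by -0.30 (SE 0.13, adjusted p = 0.0976) and Per3 by -0.48 (SE 0.24, adjusted p = 0.142) and neither passed. The effect without the hairpin minus that with it was -1.23 (SE 0.24, adjusted p = 0.0520) and -0.72 (SE 0.34, adjusted p = 0.403). Arntl rose by 0.61 (SE 0.16, adjusted p = 0.00690) and Nfil3 by 0.66 (SE 0.20, adjusted p = 0.0183). The EV level of Dbp was itself lower with the hairpin, at 12.2 and 8.66 CPM against 26.6 and 25.6 without it, and that of Tef at 47.1 and 55.7 against 98.6 and 109.9, and the part of this in the differences was not tested.

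In aC3, a single Bmal1-null clone of YUMM2.1, the same construct acted on cells without their own Bmal1. There 661 of 13790 genes rose (4.79%) and 840 fell (6.09%). Of 1700 genes called in YUMM2.1 and tested in aC3, 748 (44.0%) moved in the same direction, 109 (6.41%) were called in it and 220 were called in the opposite one. Over all genes tested in both, 52.5% moved in the same direction. The test of the difference, YUMM2.1 minus aC3, called 1785 of 14673 genes (12.2%), or 3154 after the exchange. Sox10 was at 465 and 454 CPM in the aC3 EV libraries and 619.7 and 564 with dHLH-Bmal1, so that it rose by 0.37 (SE 0.086, adjusted p = 0.0147) there and the difference was -3.15 (SE 0.17, adjusted p = 2.47e-06). Col1a1 was at 2.48 and 2.77 against 3.19 and 2.97 CPM, with a difference of 4.25 (SE 0.70, adjusted p = 0.00236), and Klf4 at 21.5 and 21.7 against 21.5 and 24.3, with a difference of 2.93 (SE 0.47, adjusted p = 0.00211). Of the 15 matrix genes that rose in YUMM2.1, 3 of 13 tested were called in the same direction in aC3, and of 4 melanocytic genes that fell none was. Sox9, at 3.31 and 4.49 against 5.68 and 6.71 CPM in aC3, had a difference of 1.57 (SE 1.11, adjusted p = 0.423) as labelled and 3.02 (adjusted p = 2.12e-06) after the exchange.

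Both REV-ERB genes fell in aC3 too. Nr1d1 was at 1.93 and 2.2 CPM in aC3 EV and 0.498 and 0.660 with dHLH-Bmal1, a change of -1.82 (SE 0.44, adjusted p = 0.0168), and Nr1d2 at 19.9 and 23.1 against 5.18 and 5.50, a change of -2.01 (SE 0.15, adjusted p = 1.58e-05). The differences from YUMM2.1 were -0.32 (SE 0.58, adjusted p = 0.797) and 0.54 (SE 0.26, adjusted p = 0.222), so they did not pass, which does not show that the effects are equal. Per3 changed by -1.09 (SE 0.24, adjusted p = 0.0106) on the log2 scale and Cry1 rose by 1.12 (SE 0.12, adjusted p = 0.000130). Dbp and Tef differed by -0.30 (SE 0.17, adjusted p = 0.299) and 0.055 (SE 0.11, adjusted p = 0.798) in aC3, which did not pass, and their difference from YUMM2.1 passed at -1.17 (SE 0.21, adjusted p = 0.00375) and -1.05 (SE 0.17, adjusted p = 0.00207). Rorb and Nfil3 differed as well, by -1.31 (SE 0.15, adjusted p = 0.000190) and 1.46 (SE 0.29, adjusted p = 0.00720). Neither Arntl nor Nfil3 was called higher in aC3, and the effect on Arntl also differed from that in YUMM2.1 by the same test.

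YUMM1.7 is another mouse melanoma line with its own Bmal1 (Braf V600E, Cdkn2a -/-). There dHLH-Bmal1 raised 29 of 13816 genes (0.21%) and lowered 58 (0.42%). Of 1564 genes called in YUMM2.1 and tested in YUMM1.7, 815 (52.1%) moved in the same direction, near the 51.4% over all genes tested in both. Of the 1564 genes, 13 (0.831%) were called in the same direction and 9 in the opposite one. The test of the difference called 1496 of 15120 genes (9.89%), or 2938 after the exchange. Clock genes were among the few that changed. Nr1d1 changed by -1.37 (SE 0.24, adjusted p = 0.00975) in YUMM1.7, Nr1d2 by -1.17 (SE 0.096, adjusted p = 1.30e-05), Per3 by -1.09 (SE 0.13, adjusted p = 0.000440), Dbp by -1.02 (SE 0.20, adjusted p = 0.0234) and Tef by -0.79 (SE 0.088, adjusted p = 0.000152). Arntl rose by 1.05 (SE 0.19, adjusted p = 0.0136) and Cry1 by 1.12 (SE 0.15, adjusted p = 0.00120). None of these 7 had a difference from YUMM2.1 that passed (the lowest adjusted p was 0.249, for Nr1d1). Nfil3 did differ, by 1.55 (SE 0.30, adjusted p = 0.0104), and Rorb by -1.51 (SE 0.15, adjusted p = 0.000533). Sox10 was close to absent in YUMM1.7, at 1.55 and 1.15 CPM in EV, and Sox9 was already at 217 and 226 in EV against 227 and 227 with dHLH-Bmal1. Klf4 at 100.1 and 105 against 91.8 and 88.9 CPM and Col1a1 at 2.64 and 2.78 against 5.36 and 4.93 did not pass, with a difference of 3.15 (SE 0.45, adjusted p = 0.00234) and 3.53 (SE 0.69, adjusted p = 0.0107). Col1a2, the partner chain, was already at 2153 and 2194 CPM in YUMM1.7 EV. With dHLH-Bmal1 it was at 2068 and 2095 and did not pass (edgeR adjusted p = 0.617). Its difference from YUMM1.7 was 5.15 (SE 0.71, edgeR adjusted p = 0.00200).

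**Figure D5:**
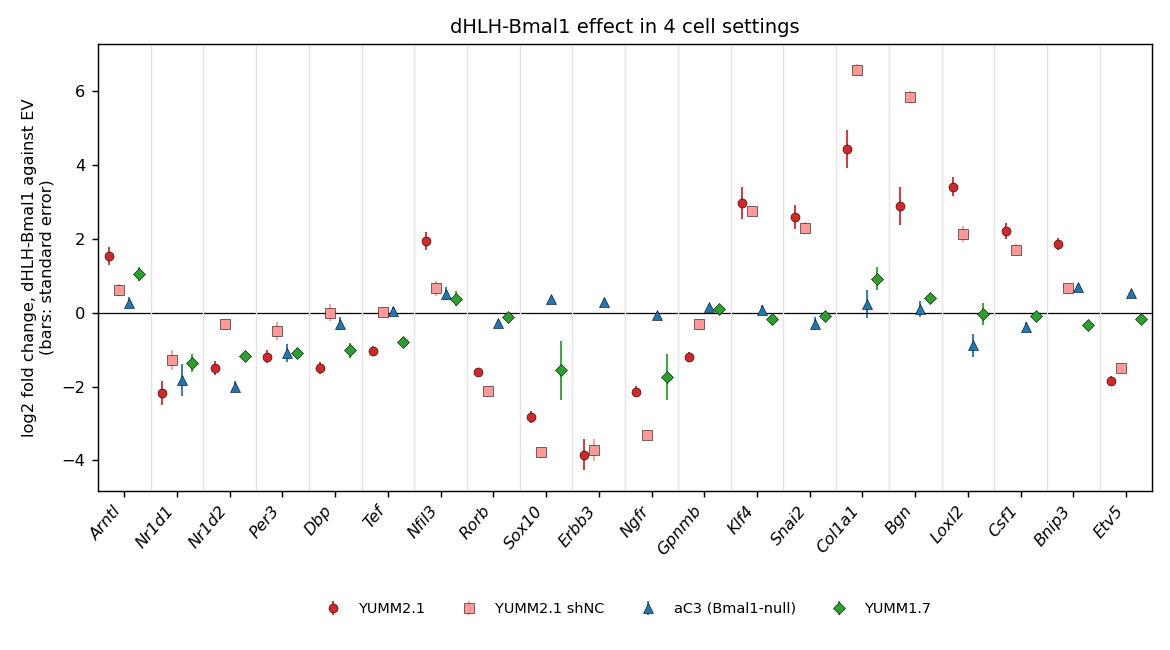
Log2 fold change of dHLH-Bmal1 against EV, with its standard error as a bar, for 20 genes in YUMM2.1 (red circles), YUMM2.1 shNC (pink squares), Bmal1-null aC3 (blue triangles) and YUMM1.7 (green diamonds), where a missing point was not tested. Nr1d1 is below 0 in all 4, while Sox10, Klf4, Snai2, Col1a1, Bgn and Etv5 are far from 0 in both YUMM2.1 sets and closer to it in aC3.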

How the data were processed

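RNA of YUMM2.1, YUMM2.1 shNC, aC3 and YUMM1.7 cells was sequenced as single-end QuantSeq FWD libraries. The authors aligned reads to mm10 with bowtie2 and deposited expected counts per Ensembl gene from RSEM (1.2.3 per the labels), rounded to whole numbers; strand setting and Ensembl release are not given in the sources used here. The file holds 51789 genes in 40 libraries, 9097676 to 11356803 counts each in the 6 compared, so a gene at 1 CPM rests on about 10 counts.

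Genes passing filterByExpr were tested with edgeR 4.0.16 (R 4.3.3) by the quasi-likelihood test after TMM normalization, in 1 fit of the 6 YUMM2.1 libraries with a group term for the construct, with Benjamini-Hochberg adjustment over all genes tested and a threshold of 0.05. Standard errors were derived from the F statistic. The shNC, aC3 and YUMM1.7 effects came from fits of the same form, and their differences from YUMM2.1 from interaction terms. With 2 libraries against 2, a two-sided permutation test of a single gene cannot go below p = 0.333, so none was used. A floor of 3 counts per library bounds folds against a group at 0. Positions are those of GENCODE M21 on GRCm38. DESeq2 1.42.0, other filters and scalings, a replicate block, all 40 libraries in 1 fit and leaving out each library were tried as alternatives. The test was checked on simulated data. Promoter windows come from RefSeq.

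The genes named were taken from those the study names for this comparison, members of the gene lists, the 12 with the largest change and the 8 with the highest CPM in each direction (protein-coding, called under both labellings, mean of at least 5 CPM, no overlap with EV 1, EV 2 and WT-Bmal1 1), and those with the largest differences between settings. The comparison, the lists and these rules were chosen with earlier results of these data known. Among genes named, Arntl, Nr1d1, Dbp, Tef, Usp2, Bhlhe40, Bhlhe41, Junb, Jund, Atf5, Ccnd1, Tuba1a, Fn1, Tnc, Thbs1, Col15a1, Loxl2, Bnip3, Ndrg1, Plod2 and Phlda1 share exonic positions with another gene and their counts are uncertain to that extent. Some genes and 1 allele of the cell lines are not reported here.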

Additional observations from a re-analysis of the deposited data

Results flagged for a closer look

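In 5 genes the effect of dHLH-Bmal1 on YUMM2.1 differed from its effect in another setting by the interaction test of edgeR, and they lead each direction by size among the genes chosen for their differences that had more than 3 counts in a library of both groups and passed the filter in the other setting alone. Col4a4 and Syt13, which did not pass that filter in YUMM1.7, had larger differences from it, of -6.45 and 6.59 (adjusted p = 0.0231 and 0.00707), and no gene was left in the higher direction there. Siglecg, a sialic acid-binding lectin, differed from Bmal1-null aC3 by 7.38 on the log2 scale (SE 1.03, adjusted p = 0.000843), and by 7.99 after the exchange. Its effect was 5.02 in YUMM2.1 and -2.33 in aC3, where it did not pass (adjusted p = 0.146) and rested on 1.56 and 1.15 CPM in EV against 0.498 and 0. Ptprz1, a receptor phosphatase, differed from aC3 by -6.72 (SE 0.80, adjusted p = 0.000284), with effects of -5.70 and 1.05, and by -7.18 after the exchange. Plpp2, a lipid phosphatase, fell in both YUMM2.1 sets and less without the hairpin, so that its effect differed from that in the shNC cells by 2.46 (SE 0.32, adjusted p = 0.00821), with effects of -2.27 and -4.75. Car6, a secreted carbonic anhydrase, differed from the shNC cells by -3.36 (SE 0.39, adjusted p = 0.00425), with effects of -0.15, which did not pass (adjusted p = 0.760), and 3.19. Col15a1, a basement membrane collagen, differed from YUMM1.7 by -6.17 (SE 0.70, adjusted p = 0.000829), with effects of -5.54 and 0.62, of which the latter did not pass (adjusted p = 0.719), and by -6.53 after the exchange. The causes of these differences were not tested.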

How the results depend on the processing

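The count of 1894 genes became 4114 with EV 2 and WT-Bmal1 1 exchanged, 3250 with the exchange in the 4 libraries compared alone, 3102 without a filter on low counts, 3488 in 1 fit of all 40 libraries and 1196 with a log2 fold change of at least 1, and 644 to 1586 without 1 library. It stayed within 1.5 times with both doubtful libraries left out (1767), DESeq2 size factors (1887), DESeq2 (2292), a mean of at least 10 counts (1853) and the 4 libraries alone (1269). In the shNC cells, 4886 became 1850 with the log2 fold change of at least 1 and 3190 to 3379 without 1 library. The 1785 differences from aC3 became 3154 after the exchange, 1140 with the fold minimum and 988 to 2007 without 1 library. The 68 differences from the shNC cells became 839 after the exchange, 236 with both doubtful libraries left out, 238 with DESeq2, 570 without the filter, 303 in the fit of all 40 libraries and 5 to 67 without 1 library. The 1496 differences from YUMM1.7 became 2938, 871 and 562 to 1898 by exchange, fold minimum and leaving out 1 library.

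Replicate numbers are shared between groups, but with 2 numbers they cannot show a pairing. Deviations of same-numbered libraries correlated at 0.378 (EV and WT-Bmal1), 0.393 (EV and dHLH-Bmal1) and 0.181 (WT-Bmal1 and dHLH-Bmal1) as labelled, and at -0.041, 0.192 and -0.151 after the exchange. With the replicate block 3877 genes were called (3822 after the exchange), 5214 in the shNC cells, and 3115, 595 and 2611 differences from aC3, shNC and YUMM1.7. Of the cell cycle genes 12 fell with it.

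Of 299 genes named or in the lists 134 were called. Those chosen for the largest change or the highest CPM had to be called under both labellings. Their call after the exchange was therefore fixed by the choice. Members of the gene lists were not chosen in this way, but 98.8% of all genes called as labelled were also called after the exchange. All 134 were called after the exchange and with the block, 108 with both doubtful libraries left out, 133 with DESeq2, 104 in the 4 libraries alone, and 84, 116, 95 and 94 without EV 1, EV 2, dHLH-Bmal1 1 and dHLH-Bmal1 2, and none of them reversed in these settings. Where leaving out a library leaves 1 in its group, it is assumed to vary like the others. With both doubtful libraries left out, the spread in the YUMM2.1 fit came from the dHLH-Bmal1 pair only. The 2 libraries of a group limit what can be called, and genes of a few counts, such as the pigment genes, could not be tested.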
